A study of Drosophila melanogaster with 4 samples.

Results

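The scaffold 3LHet is assembled sequence from the pericentric heterochromatin of the left arm of chromosome 3 of Drosophila melanogaster, not joined to the arm 3L in the genome release used here. The regions described are all 317 regions on 3LHet in the list deposited for the replicate set, here called combined clusters, of 12660 combined clusters on all sequence. For each, the clusters of the replicate 1 and replicate 2 lists that share at least 1 bp with it were taken. On 3LHet those lists held 226 of 4092 and 298 of 7017 clusters. The data are ChIP-seq of HP2 with the antibody Ab2-90, in nuclei of Oregon-R larvae of the 3rd instar with a wild type genotype, from 2 HP2 ChIP libraries and the 2 input libraries against which they were called. No other genotype, stage or treatment was compared. The sources do not tell whether the replicates were separate collections, and their spread may therefore be technical.

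HP2 is the product of Su(var)2-HP2, a gene named for dominant suppression of position-effect variegation, the silencing of a gene placed next to heterochromatin. HP2 binds HP1a, the protein that recognises methylated lysine 9 of histone H3 and marks the chromatin around fly centromeres. That chromatin is rich in transposon remnants and simple repeats and holds few genes. No genome of release 5 was used here, so the clusters are given by position, without sequence or genes.

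HP2 clusters covered more of the 2.56 Mb of 3LHet than of the chromosome arms, to an extent that differed between the replicates. They covered 26.7% of its bases in replicate 1 and 62.2% in replicate 2, a mean of 44.5 ± 25.1% (SD, n = 2), and combined clusters covered 68.0%. In the rest of the 5 long arms (X and both arms of chromosomes 2 and 3), outside their centromere-proximal 1 Mb, the cover was 5.16% and 10.1%. The cover of 3LHet was thus 5.18-fold that of the rest of the arms in replicate 1 and 6.18-fold in replicate 2, or 5.68 ± 0.71-fold (SD, n = 2). The excess over 1 was larger than the spread between the replicates, although the cover itself differed 2.33-fold between them. With only the higher-scoring 50% of each list the mean fold was 10.9. No test across replicates was run, since the smallest two-sided p that exact sign flips of 2 libraries allow is 0.5. Library depth is unknown, because the lists carry no reads, and the lists do not tell which bases were open to mapping and calling.

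Among the 6 named heterochromatin scaffolds, 3LHet had the highest cover in each replicate. The cover in replicate 1 was 26.7% on 3LHet, 22.0% on 2LHet, 19.1% on 2RHet, 14.3% on 3RHet, 2.99% on XHet and 0.818% on YHet. In replicate 2 it was 62.2% on 3LHet, 47.4% on 2LHet, 51.2% on 2RHet, 44.3% on 3RHet, 28.2% on XHet and 8.95% on YHet. The order of 2LHet and 2RHet thus changed between the replicates, while 3LHet stayed above both. Against the other 5 scaffolds pooled, the cover of 3LHet was 1.67-fold in replicate 1 and 1.37-fold in replicate 2 (1.52 ± 0.21, SD, n = 2). Against 3RHet, from the other arm of the same chromosome, it was 1.87-fold and 1.40-fold (1.64 ± 0.33). The assembled proximal 1 Mb of 3L was covered somewhat more than 3LHet. The cover of 3LHet was 0.905-fold that of this window in replicate 1 and 0.908-fold in replicate 2, but 1.06-fold on average when the window was widened to 2 Mb. The order of 3LHet and the proximal end of the assembled arm therefore depended on where the window was drawn.

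**Figure D1:**
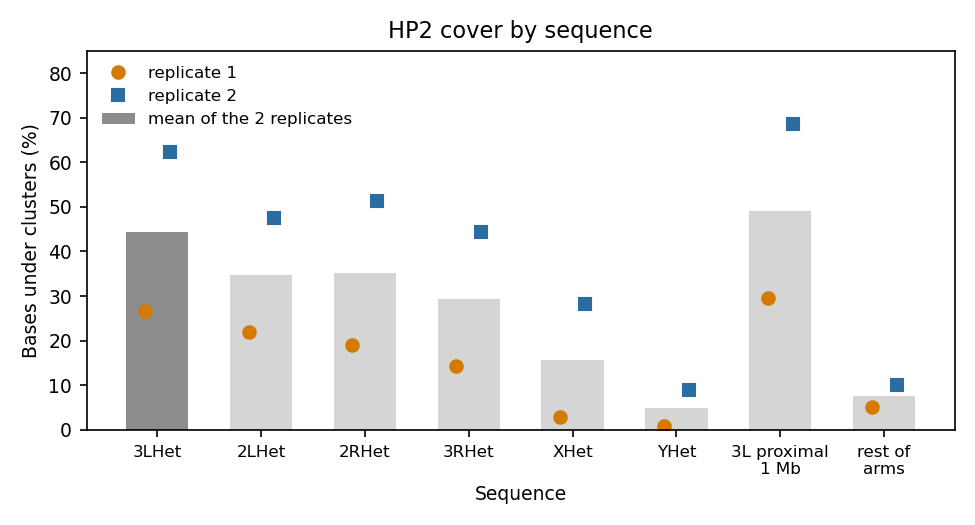
Percentage of bases under HP2 clusters (y axis) on 3LHet, the 5 other named heterochromatin scaffolds, the proximal 1 Mb of 3L and the rest of the arms (x axis). Circles are replicate 1, squares replicate 2 and bars the mean of the 2 replicates. On 3LHet the values are 26.7% and 62.2%, above those of every other scaffold in the same replicate.

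HP2 clusters were found along the whole scaffold, with a cover above that of the rest of the arms in all 26 windows of 100 kb, counted from the first base, in each replicate. In replicate 1 the cover of a window ranged from 6.79% to 53.6%, with a median of 24.2%. In replicate 2 it ranged from 30.1% to 89.1%, with a median of 63.0%. Replicate 2 was higher in all 26 windows, by 16.0 to 50.4 percentage points. The windows ranked alike in the replicates (Spearman's rho 0.88 over 26 windows). These windows lie side by side on the same scaffold and are not independent, so rho is a description only.

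The densest window was 3LHet 400001 to 500000, of which 52.3% lay under replicate 1 clusters and 89.1% under replicate 2 clusters. Next came 2200001 to 2300000, at 53.6% and 81.0%, and 2400001 to 2500000, at 45.6% and 85.6%. The windows at 1300001 to 1400000 (48.7% and 72.7%) and 600001 to 700000 (37.7% and 70.2%) completed the 5 densest, so dense windows lay in the left, middle and right parts of the scaffold. The sparsest was 100001 to 200000, at 9.58% and 30.1%. The others with the lowest mean cover were 1000001 to 1100000 (6.79% and 39.1%), 1 to 100000 (17.8% and 33.9%), 2100001 to 2200000 (12.7% and 49.7%) and 2300001 to 2400000 (18.2% and 44.2%). The first 200 kb thus formed a sparse end, and 2 of the 5 sparsest windows stood directly beside the dense window at 2200001 to 2300000.

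The ratio of the replicates was not even along the scaffold. In 4 windows, chosen after their values were seen, the cover in replicate 2 was at least 4 times that in replicate 1. These were 900001 to 1000000, 1000001 to 1100000, 1800001 to 1900000 and 2000001 to 2100000. Replicate 1 covered 6.79% to 12.3% of these windows and replicate 2 covered 39.1% to 61.4%. In 8 windows the ratio was under 2, where replicate 1 covered 17.8% to 53.6% and replicate 2 covered 33.9% to 89.1%.

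**Figure D2:**
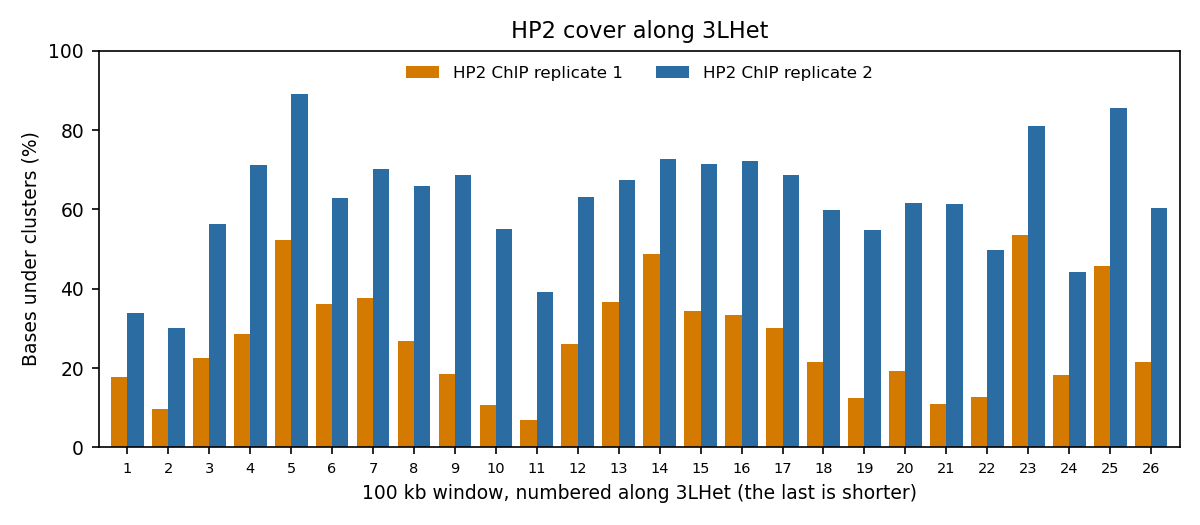
Percentage of bases under HP2 clusters (y axis) in each of 26 windows along 3LHet (x axis, numbered from the first base), in replicate 1 and in replicate 2. Replicate 2 is higher in all 26 windows, and windows 5, 23 and 25 are the densest by the mean of both.

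By overlap, the 317 combined clusters were mostly seen in both replicates or in replicate 2 only, in nearly equal numbers, and in no case in replicate 1 only. Clusters of both replicates overlapped 132 of them, or 41.6% (exact Clopper-Pearson 95% interval 36.2 to 47.3%), against 22.3% of all 12660 combined clusters. Only replicate 2 overlapped 131, or 41.3% (35.9 to 47.0%), against 29.9% of the whole list. Neither replicate overlapped 54, or 17.0% (13.1 to 21.6%), against 43.9%. Replicate 1 alone overlapped 0 of 317, which allows a share of up to 0.946% by the limit of 3 counts (upper end of the exact interval 1.16%), against 3.82% of the whole list. The intervals describe counting error alone, and clusters side by side on a scaffold are not independent. An overlap of 1 bp is easier to reach where cover is high, as on 3LHet. The part of cover in these shares was not tested. With replicate 1 left out the share overlapped by no cluster was 17.0%, and with replicate 2 left out it was 58.4%. Both follow from the counts above, and the first could not change, since replicate 1 alone overlapped 0 clusters. With a reciprocal overlap of at least 50%, 12.3% were found in both, and with clusters within 1 kb merged, 7.64% were found in neither. Shares under these 2 changed rules were computed for 3LHet only, so they cannot be set against the whole list. Beside the 41.6% of 3LHet, the share found in both was 31.3% on the other 5 scaffolds (246 of 785) and 50.0% in the proximal 1 Mb of 3L (64 of 128). By scaffold it was 48.6% on 2LHet (18 of 37), 36.8% on 2RHet (131 of 356) and 27.3% on 3RHet (93 of 341). On XHet it was 15.8% (3 of 19) and on YHet 3.1% (1 of 32). The share on 3LHet was thus not the highest of the scaffolds, and the interval of 2RHet (31.8 to 42.0%) included it.

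The clusters found in both replicates carried most of the bases under combined clusters. They spanned 1258 kb, or 72.4% of the bases under combined clusters and 49.2% of the scaffold. These are whole widths of combined clusters that each replicate overlaps by at least 1 bp. The bases under clusters of both replicates were fewer, 680 kb or 26.6% of the scaffold. Shares of bases by class are not given here for the whole list. Those found only in replicate 2 spanned 408 kb (23.5% of the bases under combined clusters), and those found in neither spanned 71.7 kb (4.12%). Median widths were 7.80 kb for clusters found in both, 2.31 kb for those only in replicate 2 and 1.16 kb for those in neither. The narrowest cluster found in both was 2.05 kb wide, while 51 of the 54 found in neither were under 2 kb.

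Clusters of 3LHet had a larger median width than all other clusters pooled in each list. The median width was 3.40 kb for the 317 combined clusters on 3LHet and 1.73 kb for the 12343 elsewhere. In the replicate lists it was 2.11 kb on 3LHet and 1.97 kb elsewhere in replicate 1, and 3.46 kb on 3LHet and 2.06 kb elsewhere in replicate 2. Clusters about as wide were found in some of the sequence most like 3LHet, but not in all of it. The combined median was 3.74 kb in the proximal 1 Mb of 3L, 3.57 kb on 2LHet and 3.37 kb on 2RHet. It was lower on 3RHet (2.54 kb), XHet (2.17 kb) and YHet (1.38 kb). In replicate 2 it was 3.56 kb in the proximal 1 Mb of 3L and 3.95 kb on 2LHet. There it was lower than on 3LHet on 2RHet (3.32 kb), 3RHet (2.78 kb), XHet (2.29 kb) and YHet (1.83 kb). Combined clusters of 10 kb or more made up 15.1% on 3LHet (48 of 317), 8.92% on the other 5 scaffolds, 17.2% in the proximal 1 Mb of 3L and 0.525% in the rest of the arms. The 48 wide clusters held 800 kb of the scaffold. The difference of 1.67 kb between the combined medians was 4.85 kb with clusters within 1 kb merged and 0.596 kb against the other 5 scaffolds alone.

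Within each of 4 groups of like width, the share of clusters found in both replicates was lower on 3LHet than elsewhere. Width comes from the same lists as the overlap, and its part in the higher share over all widths was not tested. Among clusters of 10 kb or more, 46 of 48 on 3LHet were found in both replicates (95.8%, 85.8 to 99.5%), as were 229 of 235 elsewhere (97.4%, 94.5 to 99.1%). From 5 to under 10 kb the shares were 73.3% on 3LHet (44 of 60, 60.3 to 83.9%) and 83.3% elsewhere (80.2 to 86.0%). From 2 to under 5 kb they were 36.5% on 3LHet (42 of 115, 27.7 to 46.0%) and 45.8% elsewhere (44.2 to 47.4%). Under 2 kb, 0 of 94 clusters on 3LHet were found in both, and 134 of 7562 elsewhere (1.77%). In each of the 4 width groups by itself, the interval of 3LHet included the share found elsewhere. The difference went the same way in all 4, and the shortfall over the groups together was not tested.

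**Figure D3:**
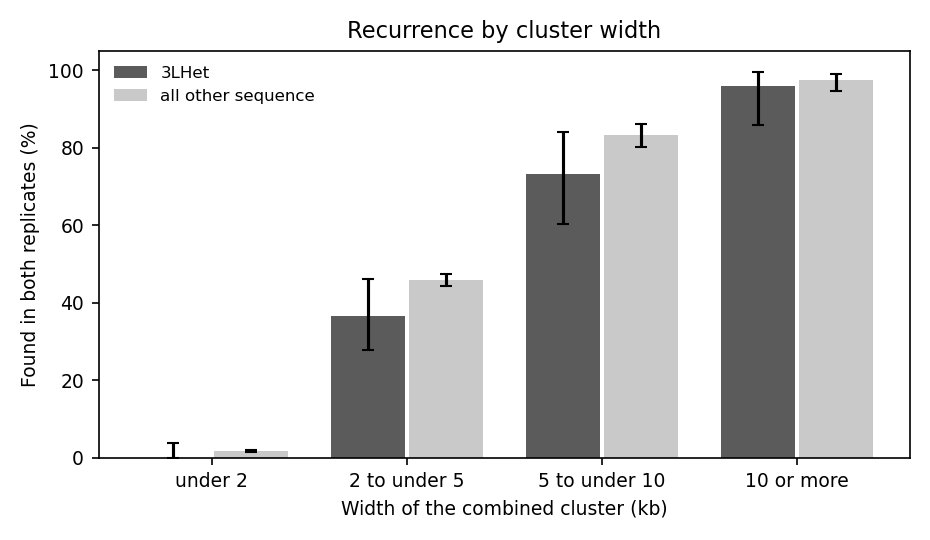
Percentage of combined clusters found in both replicates (y axis) by cluster width in kb (x axis), for 3LHet and for all other sequence. Error bars are exact 95% binomial intervals for counting error. The share goes from 0 of 94 clusters under 2 kb to 46 of 48 at 10 kb or more on 3LHet, and is not above that of other sequence in any width group.

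Replicate 1 was nested in replicate 2. All 226 replicate 1 clusters on 3LHet were overlapped by a replicate 2 cluster, against 86.0% of all replicate 1 clusters, and 210 of them lay wholly within a single one. By bases, 99.5% of the sequence under replicate 1 clusters also lay under replicate 2 clusters. In the other direction 142 of 298 replicate 2 clusters, or 47.7% (41.9 to 53.5%), overlapped a replicate 1 cluster, against 41.7% of the whole replicate 2 list. By bases, 42.8% of the sequence under replicate 2 clusters was shared. Only 3.13 kb of the scaffold lay under replicate 1 alone, while 910 kb lay under replicate 2 alone and 680 kb under both. Full overlap of replicate 1 was not limited to 3LHet, since it was also found for all 225 replicate 1 clusters of 2RHet and all 127 of 3RHet. In the rest of the arms it was 79.9% of clusters and 78.9% of bases. Replicate 2 clusters covered 62.2% of 3LHet and 10.1% of the rest of the arms, and overlap is easier to reach at high cover. The part of cover in these contrasts was not tested. With a reciprocal overlap of at least 50%, the shares on 3LHet were 24.3% of replicate 1 and 18.5% of replicate 2 clusters. Like the count of 210, they were computed for 3LHet only, without a share over the whole lists.

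Wide clusters of replicate 2 often spanned several narrower ones of replicate 1. Of the 142 replicate 2 clusters with a partner, 49 overlapped more than 1, and 1 overlapped 7. Replicate 2 clusters with a partner had a median width of 6.29 kb, and the 156 without one had 2.13 kb. Likewise, 49 of the 132 combined clusters found in both replicates held more than 1 replicate 1 cluster. The median such combined cluster lay to 51.1% under replicate 1 clusters (quartiles 36.8 and 69.6%) and to 98.0% under replicate 2 clusters (quartiles 94.3 and 99.7%). In 131 of 132 the share under replicate 2 was at least as large as that under replicate 1. Among the 69 combined clusters that held a single cluster of each replicate, 61 had both edges of the replicate 1 cluster inside those of the replicate 2 cluster. Their median widths were 1.97 kb in replicate 1, 4.77 kb in replicate 2 and 4.87 kb in the combined list. The combined edges lay close to those of replicate 2, with a median distance of 53 bp at the start and 51 bp at the end. The combined list is no independent measurement, since it was deposited for the same 2 libraries.

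**Figure D4:**
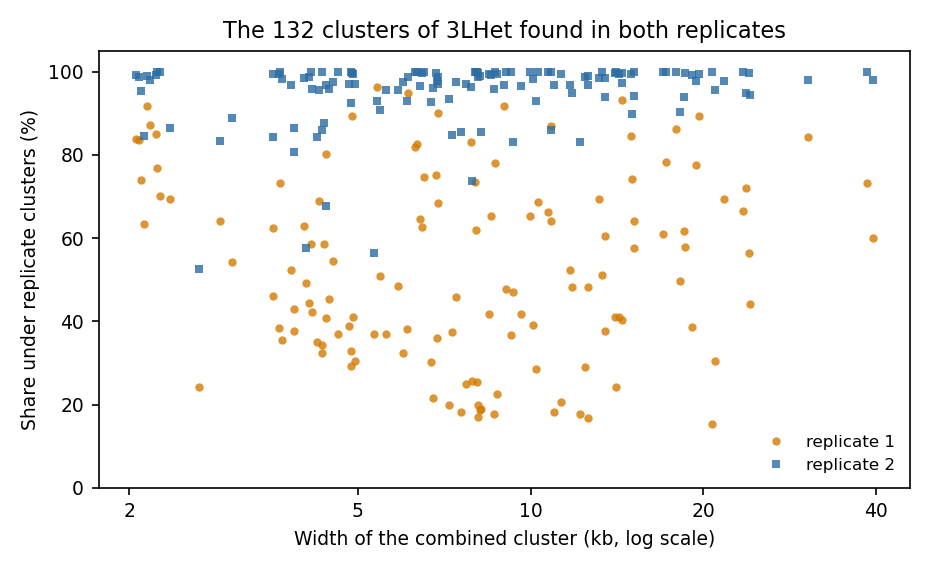
For the 132 combined clusters of 3LHet found in both replicates, the percentage of the cluster's bases that lie under clusters of replicate 1 (circles) and replicate 2 (squares) on the y axis, against cluster width in kb on a log x axis. The medians are 51.1% for replicate 1 and 98.0% for replicate 2.

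The widest cluster of the scaffold was at 3LHet 395650 to 435112, with a width of 39.5 kb. A single replicate 2 cluster covered 98.1% of it, while 7 separate replicate 1 clusters covered 59.9%. The next, at 1394390 to 1432970 (38.6 kb), lay to 73.2% under 5 replicate 1 clusters and to almost its whole length under 1 replicate 2 cluster. The third, at 2382772 to 2413148 (30.4 kb), lay to 84.3% under 3 replicate 1 clusters and to 97.9% under 2 replicate 2 clusters. All 3 were in several pieces in replicate 1 and nearly continuous in replicate 2. The other 7 of the 10 widest were 20.7 to 24.1 kb wide, at 1482110, 2482426, 1186794, 543464, 1608352, 358640 and 1435096 by their starts. The share under replicate 2 was 94.3% or more in all 7, while that under replicate 1 ran from 15.3% in the cluster at 1435096 to 72.1% in that at 1186794. Joining combined clusters at most 1 kb apart gave 157 blocks, of which 58 were at least 10 kb long and held 53.1% of the scaffold. The longest block ran over 98.0 kb from 342866 to 440870, through 7 combined clusters, and lay to 49.8% under replicate 1 and to 93.7% under replicate 2 clusters.

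The stretches without a combined cluster were mostly short. There were 318, with a median of 0.984 kb, and 18 of them reached 10 kb. The longest ran over 46.8 kb from 2327845 to 2374605, where replicate 1 had no cluster and replicate 2 covered 0.257%. The next were at 2160905 to 2188879 (28.0 kb), 1457163 to 1482109 (24.9 kb), 202997 to 226163 (23.2 kb) and 114101 to 136115 (22.0 kb). The stretch from 2160905 ended at the highest-scoring cluster found in both replicates, and that from 1457163 ended at the fourth widest cluster. In these 4 stretches replicate 1 had no cluster, and replicate 2 covered at most 0.242%. All 226 replicate 1 and all 298 replicate 2 clusters on 3LHet overlapped a combined cluster, so none lay wholly within a stretch. The low replicate cover is thus no separate support for the stretches.

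The authors' score was read mainly by rank within a list, because no source used here states its scale. Raw scores, their medians and the limit on them below are in the authors' units. Clusters of 3LHet ranked high in all 3 lists. Their median score was at the 83.3rd percentile of the combined list, the 71.5th of replicate 1 and the 76.1st of replicate 2. In the combined list the median score was 0.761 on 3LHet and 0.389 elsewhere. The replicate 1 list gave 0.710 on 3LHet and 0.562 elsewhere, and the replicate 2 list gave 1.01 and 0.621. Among the highest-scoring 25% of each list were 72.2% of the combined clusters on 3LHet (229 of 317), 41.6% of its replicate 1 clusters and 51.7% of its replicate 2 clusters. On the other 5 scaffolds these shares were 70.8%, 48.0% and 45.1%, so high ranks were shared with them. Ranked only against clusters of like width, in 10 equal groups, the median percentile was 73.9 for combined clusters, 69.1 for those of replicate 1 and 63.7 for those of replicate 2. At like width the other 5 scaffolds ranked above 3LHet in each list, with median percentiles of 77.0, 78.7 and 65.1. Without regard to width their medians were at the 82.0th, 73.8th and 73.1st percentile in the same order of lists, and the proximal 1 Mb of 3L at the 82.2nd, 66.3rd and 75.9th. The rest of the arms was at the 40.5th, 37.8th and 37.7th.

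Of the clusters found in both replicates, the highest-scoring was at 3LHet 2188880 to 2203288 (14.4 kb). It scored 1.96 and ranked 164th of 12660 in the combined list, and its replicate clusters scored 1.34 and 2.36. A single cluster covered 93.2% of it in replicate 1 and 99.6% in replicate 2, so it was nearly continuous in both. The cluster at 598236 to 616186 (18.0 kb) had a combined score of 1.89, and those at 2236418 to 2245390 (8.97 kb) and 2382772 to 2413148 had 1.88 and 1.86. These 4 lay to 84.3% or more under replicate 1 clusters, well above the 51.1% of the median cluster found in both. Among the rest of the 10 highest-scoring, this share ran from 49.3% (1882170 to 1886238) to 89.4% (577388 to 597054). The clusters were chosen by a score from the same 2 libraries, so the shares are no separate evidence of agreement. The fifth, at 307614 to 311276 (3.66 kb), had a combined score of 1.83 and lay wholly under a replicate 2 cluster.

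All 10 of the highest-scoring clusters found in both replicates held a replicate 1 cluster at the 95.4th percentile or higher. Each also held a replicate 2 cluster at the 93.8th or higher. The 10 were chosen by a score from the list deposited for the same 2 libraries, and the highest replicate score in each was taken. These high ranks are therefore no separate evidence that the replicates agree. The cluster at 1394390 to 1432970, also the second widest, scored 1.78 in the combined list, and its highest-scoring part stood at the 99.95th percentile of replicate 1, against the 98.4th of replicate 2. The narrow clusters at 1882170 to 1886238 and 2092802 to 2094926, with widths of 4.07 and 2.13 kb and combined scores of 1.72 and 1.57, stood at the 99.8th and 99.7th percentiles of replicate 1, against the 93.8th and 96.0th of replicate 2. These 3 thus ranked nearer the top in replicate 1. So did the clusters starting at 307614 (97.8th against 97.1st) and 577388 (97.0th against 94.3rd). The 4 leading clusters and that starting at 450310 (95.4th against 95.6th) ranked nearer the top in replicate 2. The remaining clusters, at 450310 to 465330 and 577388 to 597054, had lower combined scores, down to 1.34. Over the 132 clusters found in both, the highest replicate 1 score and the highest replicate 2 score were correlated (Spearman's rho 0.61). Score with score over the 228 overlapping pairs of replicate clusters, rho was 0.48. Both are descriptions over clusters of the same 2 libraries.

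Over the whole scaffold, clusters found in both replicates had the highest median score, 0.889, against 0.615 for those only in replicate 2 and 0.672 for those in neither. At the top of the score range the classes were mixed. Of the 23 combined clusters on 3LHet with a score of 1.5 or more, a limit chosen after the values were seen, 8 (34.8%) were found in both replicates, 5 only in replicate 2 and 10 in neither, beside the 41.6% found in both among all 317. In the whole list 421 combined clusters scored as high, of which 26.4% were found in both replicates, 19.7% only in replicate 2 and 53.2% in neither. The highest score on the scaffold, 3.34, was that of a cluster only 1.02 kb wide at 1514644 to 1515662, found only in replicate 2. The other leading clusters found only in replicate 2 were at 799952 to 801952 (2.00 kb, score 1.82) and 53244 to 56978 (3.74 kb, score 1.65). In neither replicate were the clusters at 29890 to 30998 (1.11 kb) and 2069810 to 2070820 (1.01 kb), which both had a score of 3.20, and those at 616624 to 618730 (2.11 kb, 2.25), 2051052 to 2052178 (1.13 kb, 1.88) and 539618 to 540618 (1.00 kb, 1.66). Of these 8 leading clusters, 5 were at most 1.13 kb wide, close to the narrowest width in the combined list, 1.00 kb. The narrowest clusters in the replicate lists were 1.30 kb wide.

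Many of the narrow clusters also shared their score exactly with another. The score of 3.34 was held by 11 combined clusters of the whole list, and that of 3.20 by 9. On 3LHet 87 of 317 combined clusters (27.4%) had a score that another combined cluster also had, against 37.2% elsewhere (4596 of 12343). They were 10 of the 132 found in both replicates (7.58%), 41 of the 131 only in replicate 2 (31.3%) and 36 of the 54 in neither (66.7%). The part of shared scores and narrow width in the low recurrence of these clusters was not tested.

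**Figure D5:**
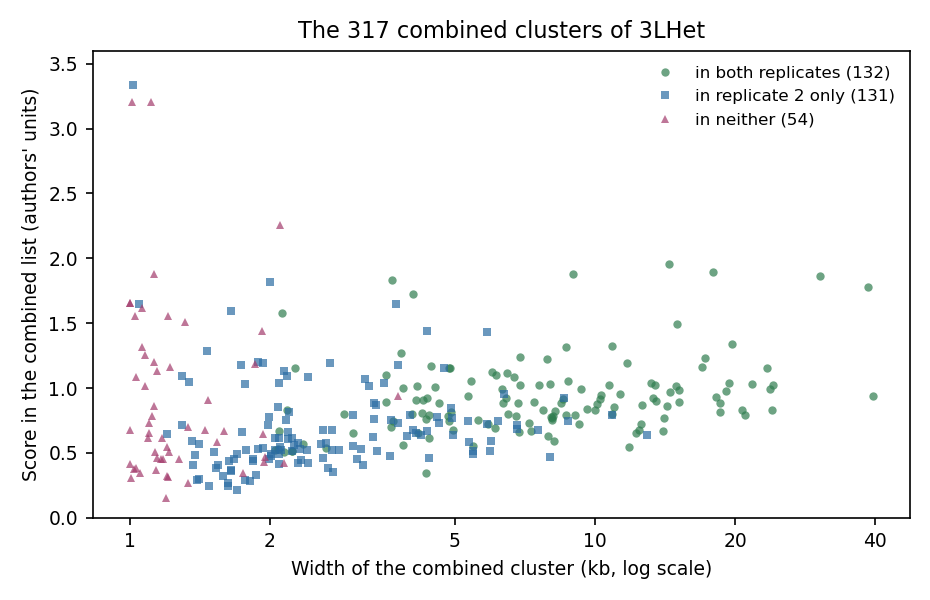
Score in the combined list, in the authors' units (y axis), against width in kb on a log axis (x axis) for the 317 combined clusters of 3LHet, by the replicates in which they were found. Clusters found in both replicates are 2.05 kb or wider with scores up to 1.96, while the scores above 3 belong to 3 clusters of about 1 kb found in replicate 2 only or in neither.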

How the data were processed

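HP2 ChIP-seq was deposited as 3 GFF3 lists of significantly enriched regions, here called clusters: 1 for each of 2 ChIP libraries, each called with the input of the same number per the labels, and 1 for the replicate set. Bowtie version 0.12.7 is named in the submitters' processing notes. The sources used here name no region caller or threshold, and they give neither the score's scale nor how the replicate-set list was made. The score of each cluster is the authors' deposited value. Coordinates are 1-based on FlyBase release 5, per the file headers, which also gave sequence lengths. On 3LHet 0 clusters reached past the scaffold.

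Cover, overlap of at least 1 bp, width and rank of score were computed with Python 3.11.15, numpy 2.4.6, pandas 2.3.3 and scipy 1.17.1, and the overlap counts and cover were checked on simulated lists. Clusters were assigned to arm windows by midpoint. Depth is unknown. Intervals are exact 95% binomial intervals for counting error only, and shares that are 0 carry the limit of 3 counts. No test over clusters was run. The clusters named are the 10 highest-scoring found in both replicates, the 10 widest, the 3 highest-scoring found only in replicate 2 and the 5 in neither, with the 5 longest cluster-free stretches and the 5 densest and 5 sparsest windows. The regions, lists and rules were chosen with earlier results of these data known.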

Additional observations from a re-analysis of the deposited data

How the results depend on the processing

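For the fold of 3LHet over the rest of the arms, the value stayed above 1 in all 6 alternatives run. It was 10.9 with the higher-scoring 50% of each list and 7.64 with the replicate 2 list shortened to the length of replicate 1, and ran from 5.18 to 6.18 without either replicate. The first 2 of these cut lists by score, in which 3LHet ranked above the rest of the arms, so they are no independent support. The fold over the proximal 1 Mb of 3L reversed to 1.06 with a window of 2 Mb, and ran from 0.905 to 0.908 without either replicate. The fold over the other scaffolds ran from 1.37 to 1.67, and the mean cover from 26.7% to 62.2%, without either replicate. Merging clusters within 1 kb changed the share of combined clusters found in both replicates to 54.8%, that in neither to 7.64%, that of replicate 2 clusters overlapped to 56.2%, and the width difference to 4.85 kb. A reciprocal overlap of at least 50% changed these shares to 12.3%, 23.0% and 18.5%, and that of replicate 1 clusters overlapped to 24.3%. The overlap shares under changed rules were computed for 3LHet only. Among combined clusters of at least 2 kb, chosen after seeing the data as was the shortened list, 59.2% were found in both and 1.35% in neither. The higher share is not particular to 3LHet. Elsewhere 45.8% were found in both from 2 to under 5 kb, 83.3% from 5 to under 10 kb and 97.4% at 10 kb or more. Each of these shares was above that of 3LHet at the same width. The share in neither was 17.0% without replicate 1 and 58.4% without replicate 2. Both follow from the overlap counts and are no check of stability. The width difference was 0.596 kb against the other scaffolds, and 1.67 kb against all other clusters. The median score percentile was 73.9 within groups of like width, 71.5 in replicate 1 and 76.1 in replicate 2. Spearman's rho of window cover was 0.82 with the higher-scoring 50% and 0.78 in windows of 50 kb. The causes of these changes were not tested. With 2 replicates, either one by itself lies within 1 SD of their mean by construction, so the 8 such values of cover and folds say nothing of stability. Of the other 44 alternative values, 24 stayed within the tolerance set for the value reported. That was the exact interval for shares and 1 SD of the replicates for cover and folds. For width and score percentile it was the SD of the 2 replicate lists, set around the combined value. For rho it was a chosen 0.05 either way. Among the 24 is the share in neither without replicate 1, which could not change. Leaving bases without sequence out of the cover was not run, since no release 5 genome was used. No paired analysis was possible because the inputs have no list of their own and no result comes from a test. The unknown depth limits every difference between the replicates.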
